A study of Homo sapiens with 32 samples.

Results

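The 10 genes described here make and package dietary fat in the absorptive cells of the intestine. They were DGAT1, DGAT2, MOGAT2 and MOGAT3, which build triglyceride, MTTP and APOB, which form the lipoprotein particle, APOA1, APOA4 and APOC3, which ride on it, and FABP1, which carries fatty acids through the cytosol. The set was selected on measured values, namely a strong fall of DGAT2 from flat culture to the HoxBan system in earlier tests of the same libraries, so that fall is given below as a description only, without a test. The 10 genes are 10 of 60107 rows of the count table, and 9 of them were among the 12849 genes that passed the filter on low counts, MOGAT2 being the exception.

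All libraries came from Caco-2, a human colorectal carcinoma line whose confluent cells take on traits of small intestinal enterocytes. Parental cells (WT), controls with Cas9 and an empty vector (e.v.) and 1 Caco-2-HIF1A-null clone (cl.21), made with Cas9 and a guide RNA delivered by lentivirus, were each grown as 2D cultures, as HoxBan monoculture or in HoxBan coculture with the anaerobe Faecalibacterium prausnitzii. In the HoxBan system cells on a coverslip lie face down on an agar column that holds the bacteria in coculture, and the e.v. and cl.21 cells stayed there for 18 h. Each group had 3 libraries except WT 2D, which had 4. A further 4 WT libraries had 1 library for each condition, labelled monoculture YCFAinul, monoculture YCFAmuc, Poop + YCFAinul and Poop + YCFAmuc. Since cl.21 is 1 clone, the HIF1A edit and other traits of the clone cannot be told apart, and no source says whether libraries of a group were separate cultures, so every p-value measures the spread between these libraries.

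Enterocytes rebuild triglyceride from absorbed monoacylglycerol and fatty acid. The MOGAT enzymes add the second fatty acid, the DGAT enzymes add the last one, and MTTP loads the product onto APOB in the endoplasmic reticulum to give a chylomicron. DGAT1 and DGAT2 catalyse the same step but belong to unrelated protein families. HIF1A encodes the oxygen-regulated subunit of the transcription factor HIF-1, and hypoxia is known to favour storage of lipid in droplets.

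Libraries held between 4144373 and 6686797 counts, and mitochondrial genes took between 4.49% and 23.6% of them. Counts came from the 3′ ends of transcripts, about 1 for each molecule, so levels were compared between genes without dividing by length. HIF1A transcripts were still counted in cl.21, at 84.9 to 210.1 counts per 1000000 counts (CPM) against 128.7 to 215.0 in WT and 147.1 to 355.0 in e.v., but a 3′ end outside the edited site does not check the knockout. All 10 epithelial and enterocyte markers had counts, with a summed level of 2814 to 5911 CPM. EPCAM, CDH1, KRT8, KRT18 and VIL1 carried most of this sum. The enterocyte markers SI, ALPI and KRT20 had low medians of 9.08, 5.25 and 1.39 CPM. FABP2 had 26 counts in all and was counted in 14 libraries. Summed levels of 6 liver markers, which Caco-2 also expresses, were 808.9 to 1729 CPM in WT, 543.3 to 1523 CPM in e.v. and 463.9 to 1079 CPM in cl.21. Of 3 enteroendocrine markers, NEUROD1 was at 0 in every library and CHGA had 5 counts in all. CHGB was counted in 31 of the 32 libraries, at up to 5.94 CPM.

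The promoters of 2 members are shown because, of the genes with a RefSeq promoter, they were the ones that passed the test as lower in cl.21 than in WT, over the 3 cultures, whichever library was left out. The RefSeq table used here held a promoter for 4 of the 10 members. The sequences are the 250 bases before the start annotated in RefSeq on GRCh38.p14, read 5′ to 3′ on the minus strand for both genes. The windows are chr2:88128063-88128312 for FABP1 and chr11:116823305-116823554 for APOA4. The FABP1 gene in GENCODE reaches to 88128116, inside its window, so part of that window lies within the gene by GENCODE.
FABP1: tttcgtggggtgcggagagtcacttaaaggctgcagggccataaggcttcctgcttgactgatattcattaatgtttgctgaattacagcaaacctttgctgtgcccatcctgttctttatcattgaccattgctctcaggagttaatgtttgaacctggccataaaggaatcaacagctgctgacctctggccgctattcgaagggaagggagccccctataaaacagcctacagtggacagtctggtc
APOA4: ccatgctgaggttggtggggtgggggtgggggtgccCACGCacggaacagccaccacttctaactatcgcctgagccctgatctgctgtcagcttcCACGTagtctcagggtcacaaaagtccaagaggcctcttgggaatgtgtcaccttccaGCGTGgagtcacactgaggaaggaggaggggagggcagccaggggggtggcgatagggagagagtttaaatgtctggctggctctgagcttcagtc
Capitals mark matches to ACGTG or GCGTG, the core that HIF-1 recognises, on either strand. The APOA4 window held 3 such matches and the FABP1 window held none. At least 1 match stood in 43.2% of 35116 promoter windows of the same length, so a match is a description of these letters and not a site.

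DGAT2 was the member whose level separated the culture systems. DGAT2 (ENSG00000062282, chromosome 11, 75759512 to 75801535, plus strand, GRCh38) stood at 53.9, 49.2, 58.5 and 44.2 CPM in WT 2D, at 52.0, 53.2 and 57.8 CPM in e.v. 2D and at 37.3, 44.5 and 50.7 CPM in cl.21 2D. HoxBan monocultures had 8.54, 7.07 and 8.15 CPM in WT, 9.69, 13.7 and 9.67 CPM in e.v. and 8.68, 7.63 and 5.06 CPM in cl.21. HoxBan cocultures had 9.20, 5.79 and 3.94 CPM in WT, 8.51, 9.96 and 11.4 CPM in e.v. and 4.79, 9.03 and 5.22 CPM in cl.21. The lowest of the 10 2D libraries (37.3 CPM) thus lay above the highest of the 18 HoxBan libraries (13.7 CPM), which is the difference for which the set was chosen. DGAT2 was lower in monoculture than in 2D by 6.55-fold in WT, 4.99-fold in e.v. and 6.18-fold in cl.21, with log2 fold changes of -2.71 ± 0.24, -2.32 ± 0.24 and -2.63 ± 0.24 (SE). Ordered from the lowest log2 fold change, DGAT2 was gene 20, 49 and 14 of 12849 in these lines. In bulk RNA, fewer expressing cells and less RNA per cell cannot be told apart.

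DGAT1, the partner enzyme, did not show this pattern. DGAT1 (ENSG00000185000, chromosome 8, 144314584 to 144326910, minus strand) ranged from 30.2 to 46.6 CPM in 2D, with a median of 36.2 CPM, and from 23.8 to 48.8 CPM in HoxBan, with a median of 30.2 CPM. Its log2 fold changes from 2D to monoculture were 0.09 in WT, -0.40 in e.v. and -0.39 in cl.21, and its 2D and HoxBan libraries overlapped. The ratio of DGAT2 to DGAT1 lay between 1.01 and 1.65 in the 10 2D libraries and between 0.105 and 0.567 in the 18 HoxBan libraries, so the DGAT2 level was above the DGAT1 level in every 2D library and below it in every HoxBan library. DGAT1 shares 139 bases at its 3′ end with HSF1 on the opposite strand, which had 8158 counts against 5552 for DGAT1, and reads of both genes cannot be told apart there if strand was not used in counting.

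**Figure D1:**
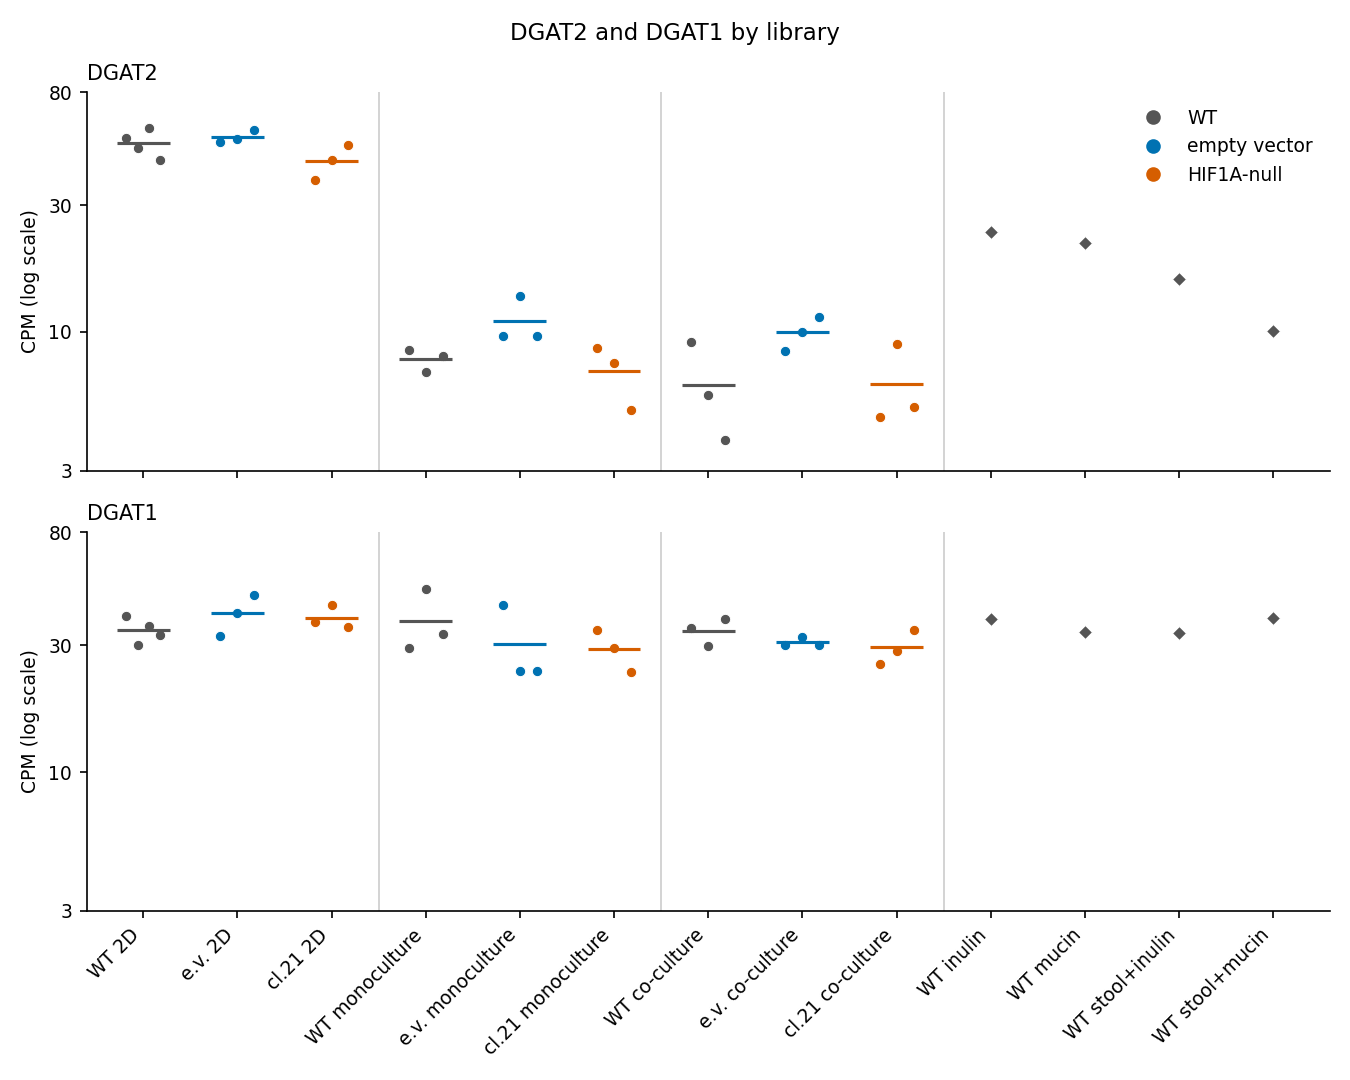
Levels of DGAT2 and DGAT1 in each of the 28 libraries of the 9 replicated groups, in CPM on a log scale, by line and culture (2D, HoxBan monoculture, HoxBan coculture). Points are libraries and bars are group means. DGAT2 points lie between 37.3 and 58.5 CPM in 2D and between 3.94 and 13.7 CPM in the replicated HoxBan groups. The DGAT2 diamonds lie between 10.1 and 23.8 CPM, and DGAT1 points overlap between the cultures.

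Apart from DGAT2, no member had a difference of more than 2-fold between 2D and monoculture in all 3 lines, and no test was made of these differences. Members lower by more than 2-fold were 2 of 9 in WT, namely DGAT2 and APOA4, 1 of 9 in e.v. and 1 of 9 in cl.21, where the single gene was DGAT2. Of all 12849 genes, 6.05% were lower by more than 2-fold in WT, 7.04% in e.v. and 5.76% in cl.21. No member was higher by more than 2-fold in any line, against 3.58%, 6.44% and 6.74% of all genes. The median log2 fold change of the 9 members was 0.07 in WT, -0.23 in e.v. and -0.39 in cl.21. The WT libraries of APOA4 overlapped between cultures, since 1 of them had 0.789 CPM in 2D and the WT monocultures had 1.45, 4.47 and 0.407 CPM.

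5 genes followed DGAT2 most closely across the 28 libraries. They were ZC3HAV1 (Pearson r = 0.978), an antiviral RNA-binding protein, TRIM25 (r = 0.956), a ubiquitin ligase of the innate response, HIF1AN (r = 0.95), the asparagine hydroxylase that restrains HIF, PCF11 (r = 0.936), a transcription termination factor, and PLCXD1 (r = 0.928). These were the highest values among 9948 genes averaging 5 CPM or more, and they describe libraries that share lines and cultures. From 2D to monoculture the log2 fold change in WT was -2.21 for ZC3HAV1, -2.22 for TRIM25 and -1.02 for HIF1AN. Of the 7 other members above that level, DGAT1 (r = 0.389) and APOA1 (r = 0.326) had the highest values, and APOA4 and MOGAT2 were too low to enter.

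Differences between lines were tested within each culture and, added after the values had been seen, as the mean over the 3 cultures. By edgeR's quasi-likelihood test with Benjamini-Hochberg adjustment over 12849 genes, 0 of 9 members passed an adjusted p of 0.05 in any single culture. Against e.v., cl.21 had 0, 1 and 2 members at an unadjusted p under 0.05 in 2D, monoculture and coculture, where 8.73%, 10.4% and 10.8% of all genes had such a p and 1%, 1.12% and 1.17% passed the adjusted threshold. Against WT, e.v. had 3, 1 and 2 such members, where 11.1%, 14.0% and 15.8% of all genes had such a p and 1.28%, 1.1% and 1.8% passed after adjustment. Against WT, cl.21 had 5, 3 and 1 such members, where 9.63%, 16.4% and 13.0% of all genes had such a p and 1.46%, 2.28% and 0.926% passed after adjustment. DESeq2 also passed 0 members in each of these 9 comparisons, with 0, 1 and 2, then 1, 1 and 2, then 4, 3 and 2 at an unadjusted p under 0.05.

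Over the 3 cultures together, 5 of 9 members were lower in cl.21 than in WT, 4 of 9 were lower in e.v. than in WT, and 1 of 9 was lower in cl.21 than in e.v. The share of all genes that passed was 14.4%, 14.6% and 8.75% in the same order. Both comparisons with WT use the same WT libraries. All 9 members had a negative log2 fold change in cl.21 against WT, with a median of -0.74, and 8 of 9 did in e.v. against WT, with a median of -0.54. DESeq2 passed 5, 5 and 1 members. The summed liver markers were lower too, with 4 of 6 (AHSG, FGB, SERPINA1 and TTR) passing as lower in cl.21 than in WT over the 3 cultures, and their part in the members' differences was not tested.

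**Figure D2:**
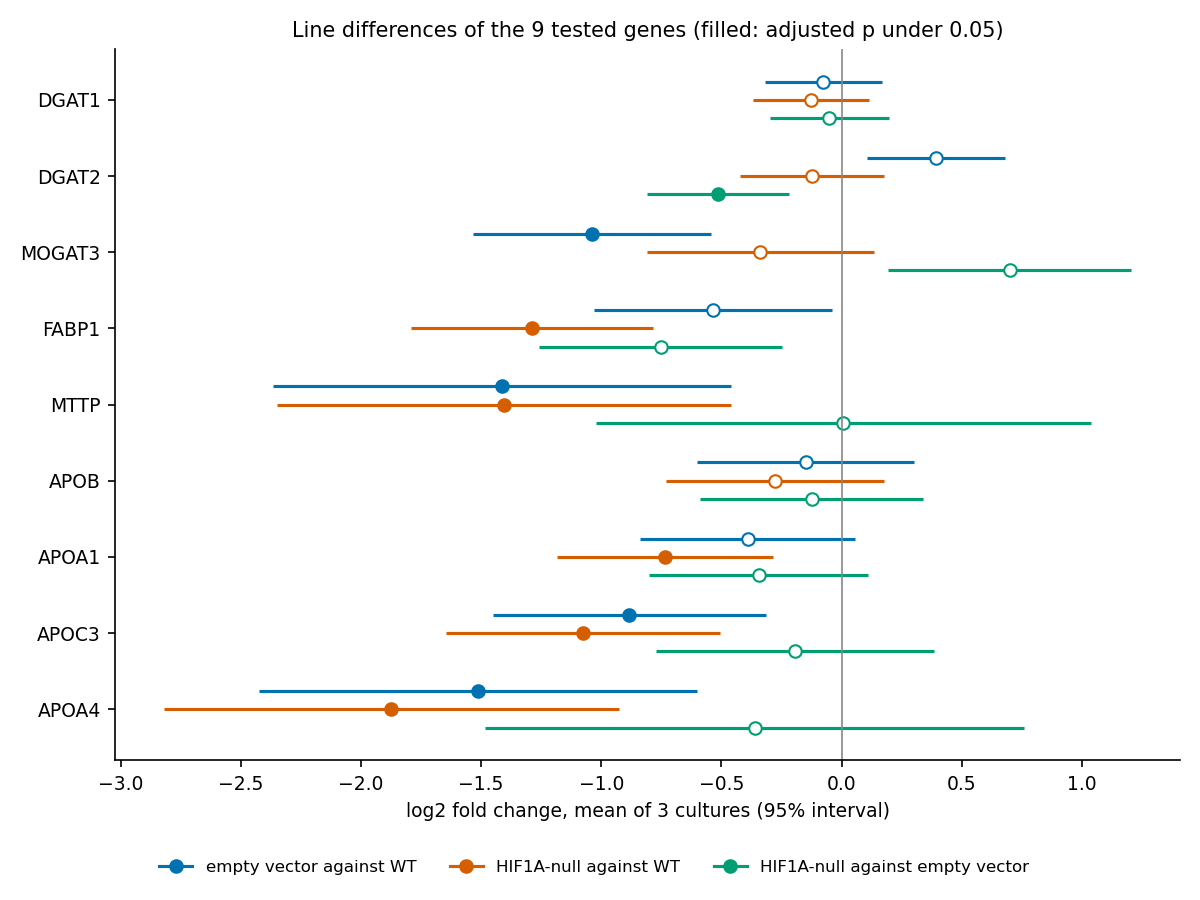
Log2 fold changes of the 9 tested members between lines, as the mean over the 3 cultures, with 95% confidence intervals. Filled points passed an adjusted p of 0.05 by edgeR's quasi-likelihood test. FABP1 (-1.29), APOA4 (-1.87), APOC3 (-1.08), APOA1 (-0.74) and MTTP (-1.41) were lower in HIF1A-null than in WT cells, and DGAT2 (-0.52) was the only filled point for HIF1A-null against empty vector.

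FABP1 had the smallest adjusted p of the members. FABP1 (ENSG00000163586, chromosome 2, 88122982 to 88128116, minus strand), whose promoter is printed above, encodes the fatty acid binding protein of liver and proximal gut. In monoculture it stood at 633.4, 935.6 and 298.9 CPM in WT, at 558.1, 458.6 and 214.4 CPM in e.v. and at 248.7, 259.8 and 213.6 CPM in cl.21. The WT and cl.21 monocultures did not overlap, whereas e.v. overlapped both. In 2D the WT libraries had 437.0, 279.8, 1108 and 521.5 CPM and the cl.21 libraries 247.0, 323.3 and 215.2 CPM, and in coculture the WT libraries had 813.4, 308.9 and 854.7 CPM and the cl.21 libraries 198.1, 232.2 and 349.6 CPM, so in both cultures 1 WT library lay within the cl.21 range. Over the 3 cultures FABP1 was lower in cl.21 than in WT by 2.44-fold (log2 fold change -1.29 ± 0.25 SE, adjusted p = 0.000683), and the difference passed whichever library was left out. It was -0.75 ± 0.25 against e.v. (adjusted p = 0.056) and -0.54 ± 0.24 in e.v. against WT (adjusted p = 0.141), neither of which passed.

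DGAT2 was lower in cl.21 than in e.v. by 1.43-fold over the 3 cultures (log2 fold change -0.52, 95% interval -0.81 to -0.22, adjusted p = 0.0216). The size within cultures was -0.31 in 2D, -0.62 in monoculture and -0.62 in coculture, with adjusted p-values of 0.807, 0.362 and 0.397. The cl.21 and e.v. levels listed above did not overlap in 2D or in monoculture, and in coculture 1 cl.21 library (9.03 CPM) lay within the e.v. range. The call was lost under scaling by library size alone (adjusted p = 0.0559) and without any 1 of 5 libraries, namely, by the library numbers of the labels, e.v. monoculture 15 (adjusted p = 0.0612), cl.21 coculture 17, e.v. coculture 22, cl.21 monoculture 24 and cl.21 coculture 30. Against WT, DGAT2 was -0.12 in cl.21 (95% interval -0.42 to 0.18) and 0.39 in e.v. (0.11 to 0.68, adjusted p = 0.0597). DGAT1 had small differences between all lines, at -0.05 in cl.21 against e.v., -0.08 in e.v. against WT and -0.13 in cl.21 against WT, with 95% intervals that together reached from -0.37 to 0.20.

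The monoacylglycerol acyltransferases were present at low level. MOGAT2 (ENSG00000166391, chromosome 11, 75717819 to 75732958, plus strand), the main form in human small intestine, had 8 counts in all 32 libraries, at most 1 in any of them. In the 9 cl.21 libraries it had 0 of 46851838 counts, which allows a level of up to 0.064 CPM. These limits cover counting error only, and the published methods mention no molecular identifiers.

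MOGAT3 (ENSG00000106384, chromosome 7, 101195007 to 101201038, minus strand) was counted in every library, and e.v. was the line with the low levels. WT had 15.8, 30.6 and 9.78 CPM in monoculture, e.v. had 10.3, 10.9 and 4.48 CPM, and cl.21 had 13.5, 11.3 and 19.1 CPM. Over all cultures the ranges were 8.84 to 30.6 CPM in WT, 3.91 to 11.1 CPM in e.v. and 7.46 to 19.2 CPM in cl.21, so the lines overlapped at their ends. MOGAT3 was 2.05-fold lower in e.v. than in WT over the 3 cultures (log2 fold change -1.04 ± 0.24 SE, adjusted p = 0.00429), and this difference passed without any 1 of the 28 libraries, the adjusted p reaching 0.0143 at most. The difference of cl.21 from e.v. was 0.70 ± 0.25 in the opposite direction (adjusted p = 0.0781), and of cl.21 from WT -0.34 ± 0.23 (adjusted p = 0.354).

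MTTP (ENSG00000138823, chromosome 4, 99563761 to 99623999, plus strand), the transfer protein that lipidates APOB, varied widely within groups. WT 2D had 16.9, 4.74, 37.7 and 12.1 CPM, WT monoculture 6.00, 24.5 and 3.26 CPM and WT coculture 4.09, 2.27 and 23.9 CPM. The highest libraries were WT 2D 12, WT monoculture 19 and WT coculture 28. Their mitochondrial shares, 14.1%, 15.5% and 20.4%, were also the highest of their groups. In e.v. the library with the highest share had the lowest MTTP level in each culture. These were 2D 26 (17.05%, 2.67 CPM), monoculture 25 (23.3%, 1.18 CPM) and coculture 14 (19.65%, 1.38 CPM). In cl.21 the highest share went with the highest MTTP level in monoculture and coculture but not in 2D. The part of the mitochondrial share in the MTTP levels was not tested. The e.v. libraries ranged from 1.18 to 8.18 CPM and the cl.21 libraries from 1.62 to 9.00 CPM, and both ranges overlapped WT. MTTP was lower than in WT over the 3 cultures, with log2 fold changes of -1.41 ± 0.46 in e.v. (adjusted p = 0.0396) and -1.41 ± 0.46 in cl.21 (adjusted p = 0.0401), and the 95% interval of cl.21 against e.v. ran from -1.02 to 1.04. Leaving out WT coculture 28 raised the adjusted p to 0.221 and 0.215, and 6 and 9 of the 28 libraries ended the 2 calls when left out. MTTP shares 272 bases at its start with TRMT10A on the opposite strand.

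APOB (ENSG00000084674, chromosome 2, 21001429 to 21044073, minus strand), the structural protein of the particle, was with FABP1 the most abundant member, at 193.5 to 912.8 CPM. No comparison of APOB passed. Its log2 fold changes over the 3 cultures were -0.13 in cl.21 against e.v., -0.15 in e.v. against WT and -0.28 in cl.21 against WT, the last with a 95% interval of -0.73 to 0.18. Within WT 2D alone the levels were 663.7, 508.1, 844.8 and 193.5 CPM.

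The apolipoprotein genes APOA4, APOC3 and APOA1 lie side by side on chromosome 11. APOA4 (ENSG00000110244, 116820700 to 116823306, minus strand) encodes a chylomicron protein of the small intestine, APOC3 (ENSG00000110245, 116829706 to 116833072, plus strand) an inhibitor of lipoprotein lipase, and APOA1 (ENSG00000118137, 116835751 to 116837950, minus strand) the main protein of high-density lipoprotein. All 3 were lower in cl.21 than in WT over the 3 cultures.

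APOA4 was scarce, with 283 counts in all 32 libraries. WT 2D had 6.79, 0.789, 6.63 and 3.27 CPM, e.v. 2D had 0.725, 1.17 and 1.17 CPM, and cl.21 2D had 1.07, 1.70 and 0.457 CPM. A single WT library, number 8, fell within the range of the other lines, and the other 3 lay above it. APOA4 was lower in cl.21 than in WT by 3.67-fold (log2 fold change -1.87 ± 0.46 SE, adjusted p = 0.00638), a difference that passed without any 1 library, and lower in e.v. than in WT by 2.85-fold (-1.51 ± 0.44, adjusted p = 0.0214). The latter was lost without e.v. coculture 18, WT monoculture 19 (adjusted p = 0.0986) or WT coculture 28.

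APOC3 had 211.8, 77.8, 199.9 and 100.3 CPM in WT 2D, 63.1, 63.6 and 102.3 CPM in e.v. 2D and 63.3, 97.9 and 39.9 CPM in cl.21 2D. Over all cultures its median was 100.6 CPM in WT, 73.1 CPM in e.v. and 68.4 CPM in cl.21, with ranges that overlapped. APOC3 was lower than in WT by 2.11-fold in cl.21 (adjusted p = 0.00934), which passed without any 1 library, and by 1.84-fold in e.v. (adjusted p = 0.0309), which was lost without any 1 of 9 libraries, with an adjusted p of up to 0.126 without WT monoculture 19. The apolipoproteins differed by -0.36 for APOA4, -0.19 for APOC3 and -0.35 for APOA1 between cl.21 and e.v., and none of these passed.

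APOA1 had 394.9, 180.4, 524.5 and 268.4 CPM in WT 2D, 212.2, 217.3 and 342.9 CPM in e.v. 2D and 163.4, 279.8 and 166.4 CPM in cl.21 2D. The lines overlapped in every culture. APOA1 was lower in cl.21 than in WT by 1.67-fold over the 3 cultures (log2 fold change -0.74 ± 0.22 SE, adjusted p = 0.0241), and the call was lost without cl.21 2D 1, cl.21 coculture 17 (adjusted p = 0.0585), WT monoculture 19 or cl.21 monoculture 24. In e.v. against WT the difference was -0.39 ± 0.22 (adjusted p = 0.246).

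**Figure D3:**
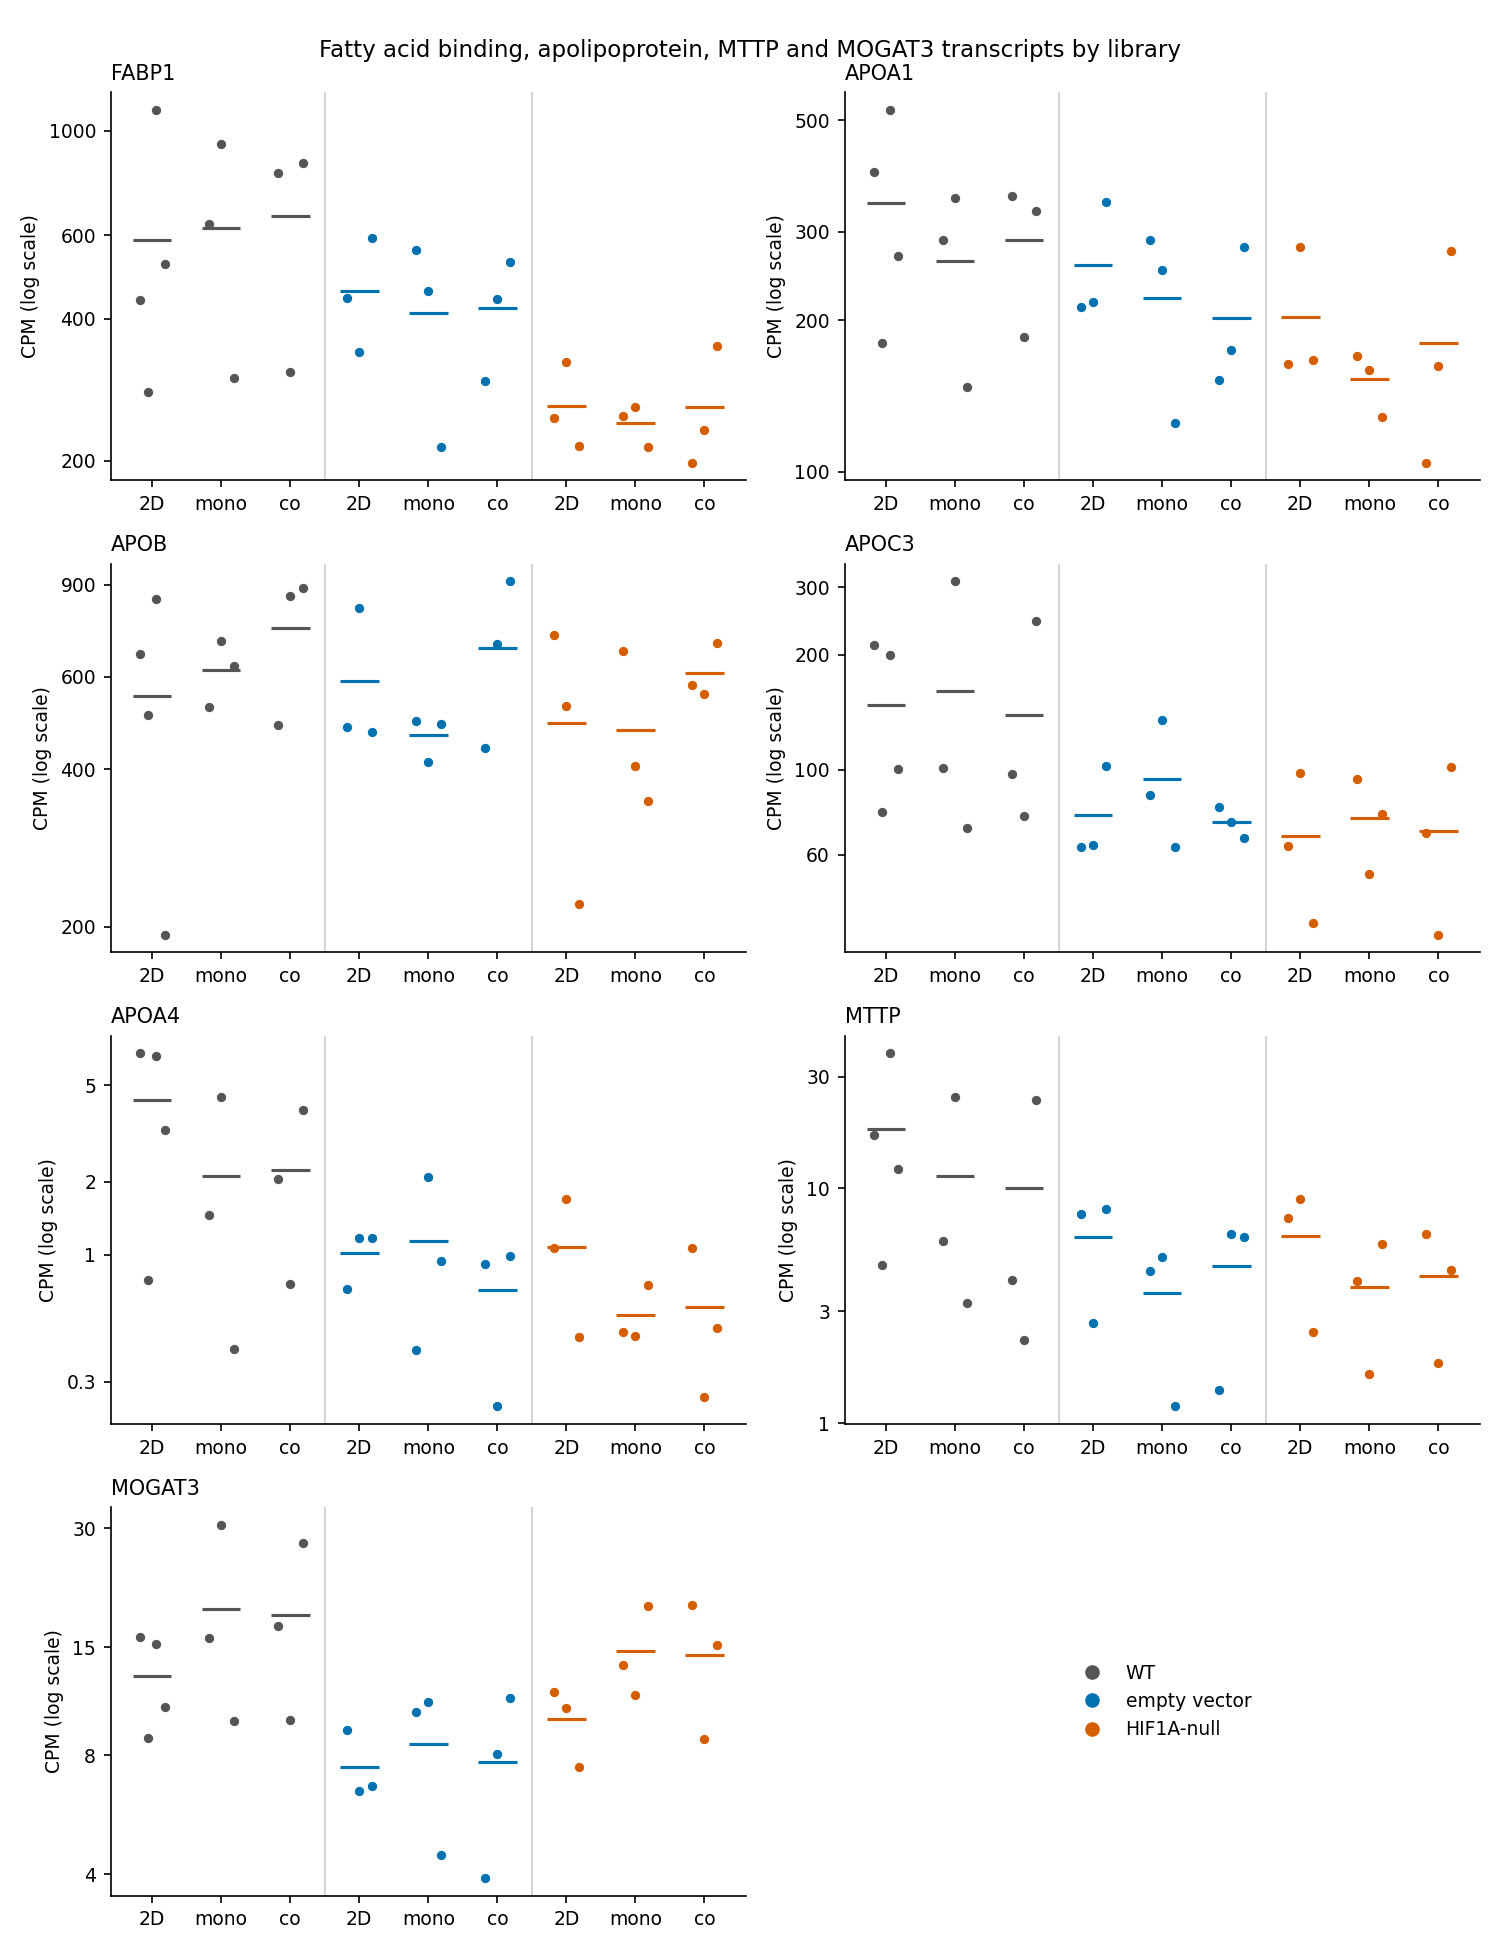
Levels of FABP1, APOA1, APOB, APOC3, APOA4, MTTP and MOGAT3 in each of the 28 libraries of the replicated groups, in CPM on log scales that differ between panels. Points are libraries, bars are group means, and colours are the 3 lines. The HIF1A-null FABP1 points lie between 198.1 and 349.6 CPM, and the WT points between 279.8 and 1108 CPM.

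Over all pairs of the 9 tested members, the number of the 9 groups in which both had their highest level in the same library ran from 2 to 7. It was 7 for APOA4 with MTTP, APOA4 with MOGAT3, APOA1 with FABP1, and APOC3 with DGAT1. For DGAT2 it was 5 with APOA1 and 2 or 3 with each other member, DGAT1 among them at 2. These are counts over groups of 3 or 4 libraries, where some agreement arises from chance alone, and no test was made of them.

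No member passed in coculture with F. prausnitzii against monoculture. In each of the 3 lines edgeR's quasi-likelihood test passed 0 of 9 members, with 0 at an unadjusted p under 0.05 and 0 by either measure in DESeq2. Of all genes 0%, 0% and 0% passed in WT, e.v. and cl.21, while 555, 791 and 908 had an unadjusted p under 0.05, and with 0, 0 and 2 genes passing by DESeq2. Over the 3 lines together 1.99% of all genes passed and 0 of 9 members did, with 0 at an unadjusted p under 0.05 by edgeR and 0 passing by DESeq2. APOB had the smallest p, at a log2 fold change of 0.41 (95% interval -0.05 to 0.88, adjusted p = 0.339), and was higher in coculture by 0.27, 0.57 and 0.39 in WT, e.v. and cl.21. The interval for DGAT2 was -0.51 to 0.13 and for FABP1 -0.41 to 0.60. APOA4, with its low counts, had an interval of -1.22 to 0.99.

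Whether the change from 2D to HoxBan, taken as the mean of monoculture and coculture, differed between lines was tested as an interaction. By edgeR 0 of 9 members passed in each of the 3 comparisons of lines, with 0 at an unadjusted p under 0.05 by edgeR and 0 by DESeq2, and 0%, 0% and 0% of all genes passed in cl.21 against e.v., e.v. against WT and cl.21 against WT. Of all genes 271, 725 and 598 had an unadjusted p under 0.05, and DESeq2 passed 0, 11 and 0. For DGAT2 the difference between the log2 fold changes from 2D to that HoxBan mean was -0.31 for cl.21 minus e.v. (95% interval -0.89 to 0.27), 0.48 for e.v. minus WT (-0.08 to 1.04) and 0.17 for cl.21 minus WT (-0.40 to 0.74). DGAT1 had estimates of 0.02, -0.42 and -0.40 in the same order, with none passing.

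DGAT2 was above every standard WT monoculture in all 4 WT libraries that had 1 library for each condition, and in 3 of them its counting interval was too. The libraries labelled monoculture YCFAinul and monoculture YCFAmuc had 23.8 CPM (95% exact Poisson interval 19.7 to 28.3) and 21.6 CPM (17.5 to 26.4), from 123 and 96 counts. The libraries labelled Poop + YCFAinul and Poop + YCFAmuc had 15.9 CPM (12.7 to 19.5) and 10.1 CPM (7.30 to 13.6), from 88 and 43 counts. Standard WT monocultures had 7.07 to 8.54 CPM and WT 2D 44.2 to 58.5 CPM, so the first 3 lay between both groups and the interval of the last one overlapped the monocultures. The intervals cover counting error only, and with 1 library for each condition there is no test. DGAT1 was at 33.3 to 38.0 CPM in these 4 libraries, within its range in WT monoculture. APOB was lower in the monoculture YCFAmuc library, at 383.0 CPM (365.0 to 401.6) against 524.9 to 702.7 CPM in WT monoculture, and FABP1 was at 306.7 to 355.1 CPM, within the WT monoculture range.

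Other genes of triglyceride and lipoprotein metabolism were taken from 6 lists with 108 genes, of which 83 were tested. Within single cultures, 1, 2 and 3 of the 83 passed in cl.21 against e.v. (2D, monoculture, coculture), 3, 3 and 5 in e.v. against WT and 2, 1 and 2 in cl.21 against WT. Of all genes 1%, 1.12% and 1.17% passed in the first of these, 1.28%, 1.1% and 1.8% in the second and 1.46%, 2.28% and 0.926% in the third. In coculture against monoculture edgeR passed 0 in WT, e.v. and cl.21, with 1, 3 and 2 at an unadjusted p under 0.05 and 0 by DESeq2. Of the 22 calls within single cultures, 1 passed without any 1 of the 28 libraries and 8 passed under every alternative in scaling, filter, covariate, tool or samples. Over the 3 cultures 10 passed in cl.21 against e.v. (3 higher, 7 lower), 21 in e.v. against WT (10 higher, 11 lower) and 19 in cl.21 against WT (8 higher, 11 lower), which is 12.0%, 25.3% and 22.9% of those tested, beside 8.75%, 14.6% and 14.4% of all genes.

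APOA2, the second protein of high-density lipoprotein, differed between lines in all cultures. It ranged from 998.5 to 1713 CPM in the 9 e.v. libraries, from 476.5 to 987.1 CPM in the 10 WT libraries and from 380.3 to 752.2 CPM in the 9 cl.21 libraries, so e.v. overlapped neither of the other lines. APOA2 was lower in cl.21 than in e.v. by log2 fold changes of -1.17 in 2D, -1.38 in monoculture and -1.34 in coculture (adjusted p = 0.0189, 0.00627 and 0.00805). It was higher in e.v. than in WT by 1.27 in monoculture (adjusted p = 0.0175) and 1.12 in coculture (adjusted p = 0.025). With the compared groups fitted alone, the adjusted p of cl.21 against e.v. in monoculture was 0.0628 and that of e.v. against WT in coculture 0.0716, and leaving out single libraries raised it to at most 0.159 over these 5 calls. Among the other apolipoproteins, of which 9 of 16 were tested, CLU was higher in e.v. than in WT by 0.76, 1.18 and 0.93 in the 3 cultures (adjusted p = 0.0416, 0.00303 and 0.0176), APOD by 1.78 in monoculture and 1.68 in coculture (adjusted p = 0.0285 and 0.0334), and APOH by 0.79 in 2D (adjusted p = 0.0177). CLU in 2D was lost under library size alone (adjusted p = 0.0635) and without any 1 of 11 libraries, and with the compared groups fitted alone CLU in monoculture (0.161) and coculture (0.0716) and APOD in monoculture (0.0907) were lost. Leaving out single libraries raised the adjusted p of these 6 calls to at most 0.221, reached by APOH without e.v. 2D 26. The summed immune markers ran from 22.9 to 44.9 CPM in e.v. against 6.72 to 16.5 CPM in WT and 5.02 to 21.1 CPM in cl.21. LYZ, which is also a Paneth cell marker, carried most of this sum. Of the other immune markers, PTPRC and CD3E had 4 and 12 counts in all libraries, and CD68 reached 3.71 CPM at most. The part of LYZ in these differences was not tested.

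HILPDA, a droplet protein that inhibits lipolysis and a known target of HIF-1, separated cl.21 from e.v. in both HoxBan cultures. In coculture it had 101.7 to 125.6 CPM in e.v. and 27.4 to 40.0 CPM in cl.21, and in monoculture 41.6, 119 and 133 CPM in e.v. and 27.3 to 38.6 CPM in cl.21. HILPDA was lower in cl.21 than in e.v., with log2 fold changes of -1.54 in monoculture (adjusted p = 0.0091) and -1.83 in coculture (adjusted p = 0.00243), and the groups did not overlap. In 2D both edited lines were low, at 12.5 to 18.9 CPM in e.v. and 14.0 to 17.4 CPM in cl.21 against 29.5 to 52.5 CPM in WT, and e.v. and cl.21 differed from WT by -1.35 and -1.38 (adjusted p = 0.0244 and 0.0152). The first of these was lost without any 1 of 5 libraries, reaching 0.221 without e.v. 2D 26, and the second without any 1 of 3, reaching 0.101 without cl.21 2D 1. The coculture difference from e.v. passed without any 1 library. That in monoculture was lost without cl.21 7, e.v. 15 or e.v. 25 and when both groups were fitted alone (adjusted p = 0.252). HILPDA was lower in cl.21 than in WT in coculture too, by -1.39 (adjusted p = 0.0274). That call was lost with the compared groups fitted alone (0.127) and without WT coculture 3 (0.213), cl.21 coculture 17 or cl.21 coculture 30.

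**Figure D4:**
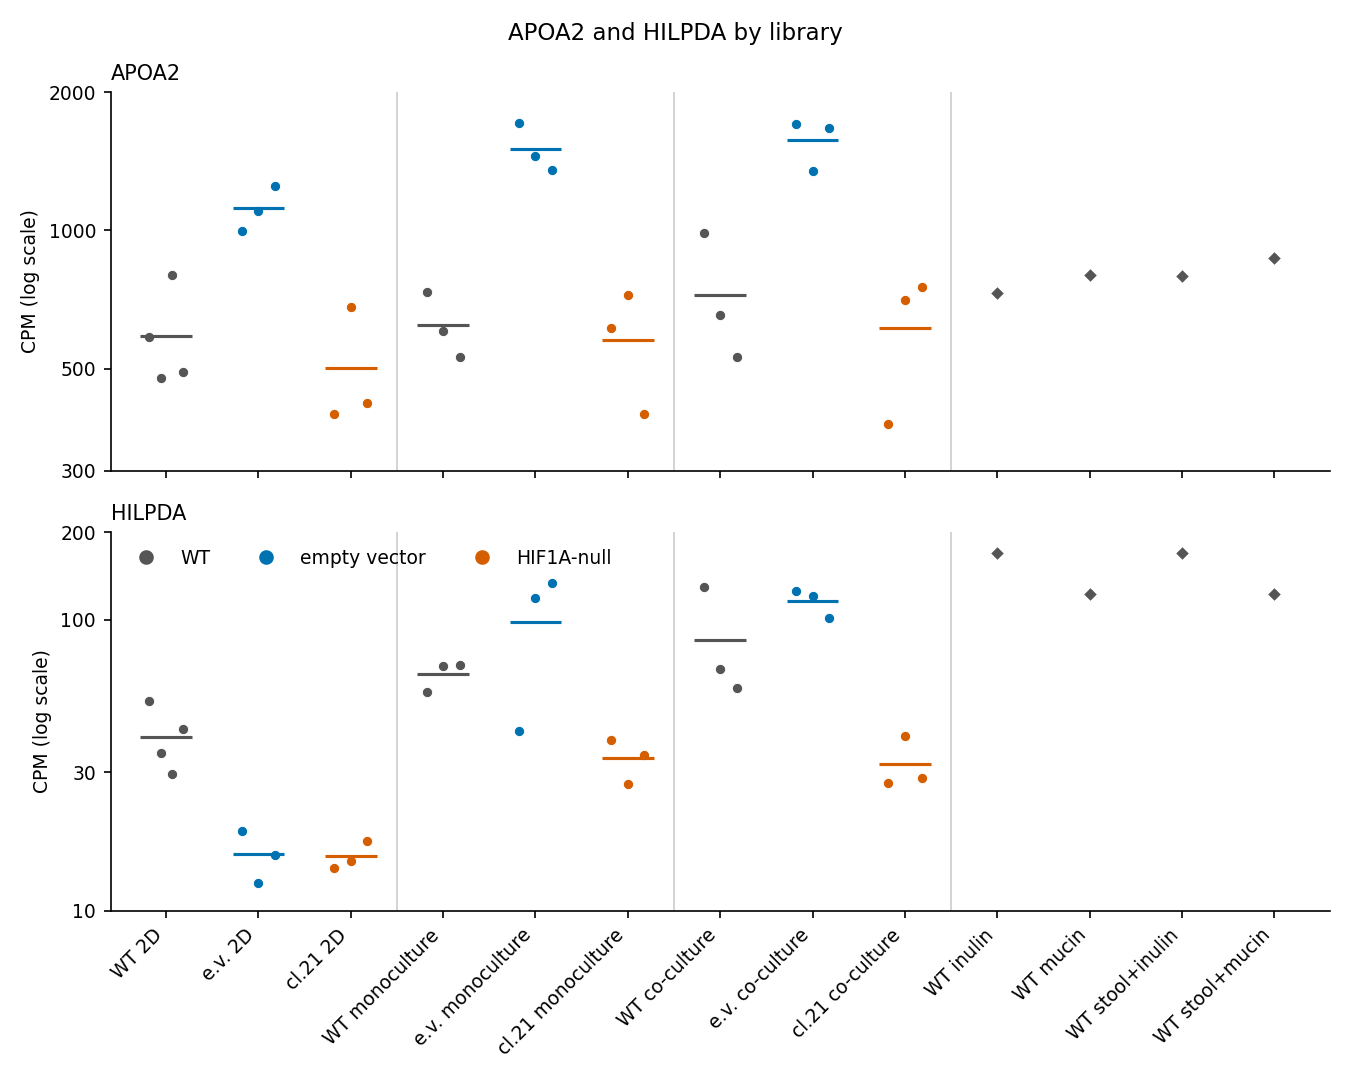
Levels of APOA2 and HILPDA in each of the 28 libraries of the replicated groups, in CPM on a log scale, by line and culture. Points are libraries and bars are group means. All 9 empty vector APOA2 points lie at or above 998.5 CPM, and HIF1A-null HILPDA points in coculture lie between 27.4 and 40.0 CPM.

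In the glycerolipid synthesis list, with 15 of 18 genes tested, GPAM, the mitochondrial enzyme that adds the first fatty acid to glycerol-3-phosphate, was higher in cl.21 than in e.v. by 0.77 in coculture (adjusted p = 0.0445), at 59.4 to 93.5 CPM against 45.8 to 50.0 CPM. AGPAT3, which adds the second one, was lower in cl.21 than in WT in monoculture (log2 fold change -0.71, adjusted p = 0.046) and coculture (-0.85, adjusted p = 0.0275), with coculture levels of 14.7 to 26.9 CPM against 33.0 to 46.8 CPM. ACSL4, an acyl-CoA synthetase, was higher in e.v. than in WT by 0.71 in coculture (adjusted p = 0.0375). With the compared groups fitted alone these 4 calls were lost, at adjusted p-values of 0.12, 0.174, 0.283 and 0.141. Over the 3 cultures together, the same differences between lines passed by edgeR's quasi-likelihood test. These comparisons include the libraries in which the genes passed and for which they were named, so they are not an independent check. GPAM differed by 0.56 in cl.21 against e.v. (adjusted p = 0.000988) and AGPAT3 by -0.695 in cl.21 against WT (5.87e-05). ACSL4 differed by 0.60 in e.v. against WT (0.000206). Each passed without any 1 library and under each alternative run for its comparison.

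In the lipoprotein assembly list, with 20 of 22 genes tested, PRAP1, a secreted lipid-binding protein known to promote MTTP activity, was lower in cl.21 than in WT in 2D (log2 fold change -1.67, adjusted p = 0.0252), at 0.913 to 2.09 CPM against 3.00 to 7.18 CPM. This call was lost with the compared groups fitted alone (adjusted p = 0.0545) and without any 1 of 4 libraries, reaching 0.169 without cl.21 2D 31. Over the 3 cultures PRAP1 was also lower in cl.21 than in WT by edgeR's quasi-likelihood test (log2 fold change -1.675, adjusted p = 6.05e-05). The 2D libraries for which PRAP1 was named are part of this comparison, so it is not an independent check. The difference over the 3 cultures passed without any 1 library and under each alternative run for this comparison. In the list of fatty acid and sterol handling, with 10 of 15 tested, NPC1L1, the intestinal cholesterol transporter, was lower in e.v. than in WT over the 3 cultures (log2 fold change -0.92, adjusted p = 0.00666) and passed without any 1 library.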

How the data were processed

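RNA of Caco-2 cells was made into QuantSeq 3′ libraries (32 libraries). The authors deposited raw counts per gene, and the submitters' processing notes give genome GRCh38, while aligner, counter, strand setting and gene models were not given in the sources used here. Counts of 28 libraries in 9 groups were fitted in 1 quasi-likelihood model (edgeR 4.0.16, R 4.3.3, TMM scaling, edgeR's default filter on low counts, 12849 genes), with Benjamini-Hochberg adjustment and a two-sided threshold of 0.05. The model had 19 residual degrees of freedom and a biological coefficient of variation of 0.201. Levels are CPM on TMM-scaled totals, and errors of levels are ranges over libraries. Single libraries have exact Poisson intervals (scipy 1.17.1). Alternatives were upper-quartile scaling, library size alone, DESeq2 1.42.0, no filter, the mitochondrial share as covariate, edgeR's exact test, the compared groups alone, and each library left out. Gene positions are from GENCODE on GRCh38 and promoters from RefSeq. On counts simulated for HIF1A-null against empty vector in monoculture (12498 genes, 200 changed), the test recovered 58% of 2-fold and 99% of 4-fold changes. There were 5 false among 162 calls. Every simulated gene had the same coefficient of variation (0.201), and changes were placed only in genes above a low-count limit. Members with larger errors in this comparison, such as FABP1, MTTP and APOA4 (SE 0.43, 0.92 and 0.94), are not covered by these shares.

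Members and lists were chosen with earlier results of these data known. Named were the 10 members, the 5 genes most correlated with DGAT2, and list genes that passed within single cultures. Of the latter, up to 3 of each list per comparison were named by adjusted p. Among list genes that passed only over the 3 cultures, NPC1L1 was named and the others were counted without being named. The result of 1 list gene is not reported here. The motif and the 2 promoters shown were chosen after values were seen, and so were the comparisons over the mean of 3 cultures or lines.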

Additional observations from a re-analysis of the deposited data

Results flagged for a closer look

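DGAT2 gave a signal in libraries outside the comparisons. It stood at 23.75 CPM in the library labelled monoculture YCFAinul, at 21.6 CPM in that labelled monoculture YCFAmuc and at 15.85 CPM in that labelled Poop + YCFAinul, and the lower 95% Poisson limit of each was above the highest WT monoculture (8.54 CPM). These are 3.0, 2.73 and 2.0 times the WT monoculture mean. Each condition had 1 library, so the differences have no replicate check. No member had a library that stood apart from the rest of WT 2D by Dixon's test at the 95% level, the sole group with 4 libraries.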

How the results depend on the processing

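DGAT2 stayed lower in monoculture than in 2D under all alternatives, with log2 fold changes of -2.89 to -2.64 in WT, -2.55 to -2.18 in e.v. and -2.81 to -2.44 in cl.21. Its most negative values in WT (-2.89) and e.v. (-2.55) came from scaling by library size alone, under which the median of all genes was -0.17 in WT, -0.23 in e.v. and -0.16 in cl.21 (0.014, -0.0083 and -0.016 with TMM), and without single libraries it ran from -2.78 to -2.64, -2.51 to -2.23 and -2.81 to -2.44. No difference that passed changed direction under an alternative. Differences that had not passed could change sign, as MTTP did in e.v. against WT in coculture (-1.56 to 0.52) and APOC3 in e.v. against WT in monoculture (-1.12 to 0.14).

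Without the filter, members passing rose from 0 to 1, 1 and 1 of the tested genes in cl.21 against e.v. (2D, monoculture, coculture), to 3, 3 and 4 in e.v. against WT and to 5, 4 and 4 in cl.21 against WT, and over the 3 cultures to 3 in cl.21 against e.v. and 1 in coculture against monoculture. In e.v. against WT over the 3 cultures, FABP1 and APOA1 passed as well without the filter (edgeR quasi-likelihood adjusted p = 4.14e-05 and 0.0081). The cause of these rises was not tested. With the compared groups alone, 1 member (FABP1, adjusted p = 0.0406) passed in cl.21 against e.v. in 2D, and edgeR's exact test passed 1 (FABP1, 0.0478) in cl.21 against WT in monoculture. Over the 3 cultures cl.21 against e.v. had 0 under library size alone and 2 with the mitochondrial share as covariate. Leaving out single libraries gave 0 to 1 members in cl.21 against WT in 2D and in monoculture and in e.v. against WT in 2D (APOA4 without WT 2D 8, FABP1 without WT monoculture 29), and over the 3 cultures 3 to 5 in cl.21 against WT, 1 to 5 in e.v. against WT and 0 to 2 in cl.21 against e.v. All other comparisons stayed at 0.

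Over all genes the numbers passing moved by over 1.5 times in each comparison of lines within a single culture. They did so too in coculture against monoculture over the 3 lines. Over the 3 cultures they moved less. In cl.21 against e.v. 1124 ran from 1099 to 1580, and in e.v. against WT 1871 ran from 1696 to 2105. In cl.21 against WT 1854 ran from 1731 to 2259. Without single libraries the ranges were 925 to 1188, 1362 to 2406 and 1430 to 2099. In cl.21 against e.v. in monoculture 144 became 15 with the groups alone, 256 with the covariate and 307 without the filter, and in 2D 129 became 388 with the groups alone and 318 without the filter. In coculture against monoculture over the 3 lines 256 became 1121 under library size alone, 645 with DESeq2, 482 without the filter and 1414 with the covariate, and ran from 44 to 957 without single libraries. APOA4, MTTP and MOGAT3 had few counts (283, 1216 and 1984 in all), which limits their precision. No paired analysis was made because the labels do not say which libraries of different groups were grown or handled together.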
